A study of Homo sapiens with 32 samples.

Results

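Collagen genes were followed here through the N6-methyladenosine (m6A) profile of chromatin-associated RNA in A375 cells, an established human melanoma line. The members are the protein-coding RefSeq genes whose symbol is COL, a number, A and a number, such as COL4A1. They number 44 of 20056 protein-coding genes, and they hold 353 of the 180114 peaks deposited for 4 libraries. A peak was given to a gene when its summit lay within the gene's span on hg38, introns included and on either strand. The rule reads the symbol and type of each gene only. The members, and the lists of other genes used below, were chosen with earlier results of these data known. Their shares, given beside those of all genes, describe the data and are not a test.

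The series has 32 samples in 16 groups, and 4 of its m6A-enriched libraries are used here. In 2 libraries the A375 cells carried a hairpin RNA against METTL3 (shMETTL3, labelled METTL3 knockdown). METTL3 is the enzyme that writes most m6A on messenger RNA. The other 2 came from A375 cells with a control hairpin RNA (shControl, labelled WT). In all 4, m6A-containing fragments were enriched with an antibody kit from ribosome-depleted RNA of the chromatin fraction and sequenced (MeRIP-seq). The series title concerns m6A-modified centromeric RNA, so collagen genes are not its subject. No label says whether the replicates were separate cultures or how many hairpins or clones were used, so the spread between them may be technical. Each library is known through its list of called peaks, 44108 and 42969 in knockdown and 45345 and 47692 in control, and the read depth is unknown. METTL3 itself had 5 peaks in each of the 4 lists, which neither shows nor excludes a lower amount of its RNA. Methylation, RNA per cell and the number of cells with the RNA cannot be told apart in a peak list.

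Collagens are the main structural proteins of the extracellular matrix. Their chains wind into helical trimers that assemble into fibrils, sheet-like networks of the basement membrane, beaded filaments, or proteins anchored in the cell membrane. m6A is placed on RNA during transcription, often near stop codons and in long exons, and influences splicing, stability and translation. Chromatin-associated RNA contains many unspliced transcripts, so peaks in introns can in principle be seen in it. No peak was assigned to an exon or an intron here.

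Of the 44 collagen genes, 15 had a peak in at least 1 list (34.1%, against 53.5% of all protein-coding genes). The other 29 had none in any list. These include COL1A1, COL1A2 and COL3A1, the major fibril-forming chains of skin and bone, COL6A3, the third common chain of type VI collagen, COL7A1 of anchoring fibrils, and the short-chain collagens COL8A1, COL8A2 and COL10A1. The 15 genes with a peak had a median span of 157.2 kb and the 29 without one 139.2 kb, against 34.8 kb for all protein-coding genes with a peak.

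At 3 genes a locus on the gene's own strand covered the annotated start or began beside it, and these starts are shown because each falls in a different class of locus. The locus at COL13A1 was in all 4 lists, that of COL4A2 in the control lists only, and that of COL5A1 in the knockdown lists only. The RefSeq sequences (GRCh38.p14, plus strand) run from 250 bases before the first base of the gene to its first 30 bases, and capitals mark the bases covered by at least 1 of the peaks merged into the locus. They are chr10:69801656-69801935 for COL13A1, chr13:110307034-110307313 for COL4A2 and chr9:134641553-134641832 for COL5A1.
COL13A1: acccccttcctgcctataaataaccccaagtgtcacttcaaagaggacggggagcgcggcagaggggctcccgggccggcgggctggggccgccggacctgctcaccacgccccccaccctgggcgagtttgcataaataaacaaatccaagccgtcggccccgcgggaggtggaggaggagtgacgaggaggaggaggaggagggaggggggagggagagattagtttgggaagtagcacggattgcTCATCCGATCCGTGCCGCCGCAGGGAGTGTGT
COL4A2: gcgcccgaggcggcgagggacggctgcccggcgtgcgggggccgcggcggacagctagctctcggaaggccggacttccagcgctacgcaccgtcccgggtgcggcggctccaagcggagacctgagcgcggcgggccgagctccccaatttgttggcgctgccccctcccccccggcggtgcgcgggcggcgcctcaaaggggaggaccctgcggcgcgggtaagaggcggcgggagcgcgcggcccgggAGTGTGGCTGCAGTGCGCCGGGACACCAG
COL5A1: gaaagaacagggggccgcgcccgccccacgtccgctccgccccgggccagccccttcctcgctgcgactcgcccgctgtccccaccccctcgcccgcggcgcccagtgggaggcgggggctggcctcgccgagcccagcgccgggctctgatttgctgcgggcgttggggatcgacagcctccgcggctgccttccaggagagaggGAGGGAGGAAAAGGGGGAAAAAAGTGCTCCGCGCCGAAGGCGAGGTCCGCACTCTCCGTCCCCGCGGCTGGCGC
The peaks behind the capitals were not the same in each library. At COL4A2 the control peaks began 1 and 2 bases after the first base of the gene. At COL13A1 the peaks began 14 and 28 bases after it in knockdown replicates 1 and 2, 31 bases after it in control replicate 1, beyond the window, and 2 bases before it in control replicate 2. The COL5A1 locus is the weakest of the 3, because all its capitals come from the peak of knockdown replicate 2 (fold 1.94), which met the peak of replicate 1 (fold 2.24) by only 2 bp.
All 3 windows were rich in G and C, at 64.3% in COL13A1, 77.9% in COL4A2 and 74.6% in COL5A1, against a median of 58.2% over 35116 such windows of the table. The letters GGAC, the core of a frequent m6A sequence context, stood on the gene's strand 2 times in the COL13A1 window, 5 times in that of COL4A2 and 0 times in that of COL5A1. Over all windows, 63.3% held it on the gene's strand and 85.3% on either strand. Within the capitals, it stood 1 time on the gene's strand of COL4A2, and in the other orientation 2 times in COL5A1. COL4A2 and COL4A1 start back to back, and their start windows in the table (250 bases before to 50 after the first base) share 226 bases.

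Knockdown lists held fewer collagen peaks than control lists. There were 74 and 74 collagen peaks in the knockdown lists and 99 and 106 in the control lists, a mean of 74.0 ± 0.0 against 102.5 ± 4.95 (SD, n = 2 each). The groups do not overlap, and an exact permutation test, two-sided, returned p = 0.33, which is as low as 2 against 2 libraries can go. As a share of its list this was 0.168% and 0.172% in knockdown and 0.218% and 0.222% in control (exact permutation p = 0.33). Collagen peaks covered 23804 and 25126 bp in knockdown and 29461 and 31190 bp in control, again without overlap of the groups (exact permutation p = 0.33). Without COL5A1, which had more peaks in knockdown, there were 53 and 54 peaks in knockdown and 93 and 99 in control (exact permutation p = 0.33). The fold enrichment of each peak is the authors' own value and was not rescaled between lists. Its median over all peaks was 3.92 and 3.93 in knockdown replicates 1 and 2 and 3.84 and 3.65 in control replicates 1 and 2. A fixed fold cut-off thus need not remove the same share of each list. Folds of different lists, printed side by side below, are not on a shared scale. The median collagen peak stood at the 48.1st and 52.1st percentile of fold in knockdown replicates 1 and 2 and at the 55.7th and 46.3rd in control replicates 1 and 2, so collagen peaks were of middle strength in every list.

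By gene, 10 of the 15 collagen genes with a peak had fewer peaks in both knockdown lists than in either control list, against 24.4% of 10735 protein-coding genes with a peak. For 3 of the 15 the order was the other way, against 19.4% of those genes. They include COL4A4, whose peaks all lay on the opposite strand within another protein-coding gene. Counted on the gene's own strand, 10 collagen genes were lower and 2 higher. No share over all genes was computed for that count. Only COL9A2 and COL17A1, each with 1 peak in a single control list, had groups that overlapped. The median difference in peaks, knockdown minus control, was -2.0 over the 15 genes and 0.0 over the 10735. Among genes with at least 8 peaks over the 4 lists, 9 of 11 collagen genes were lower and 2 higher, against 29.4% and 19.4% of 6343 genes. Over protein-coding genes, this limit raised the lower share from 24.4% and left the higher share at 19.4%. After removal of peaks below a fold of 4, 13 collagen genes still had a peak. Of these 5 were lower, against 15.1% of 9009 protein-coding genes with such a peak, and 4 were higher, against 20.1%. COL4A4 was again among those that were higher. The mean difference was then 9.0 peaks in COL5A1, against 14.0 with all peaks, while it was -3.0 in COL13A1, against -10, and -1.0 in COL27A1, against -6.5. The mean difference in all collagen peaks was then -8.0, against -28.5, and it was -18.5 with a −log10 q of at least 20.

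**Figure D1:**
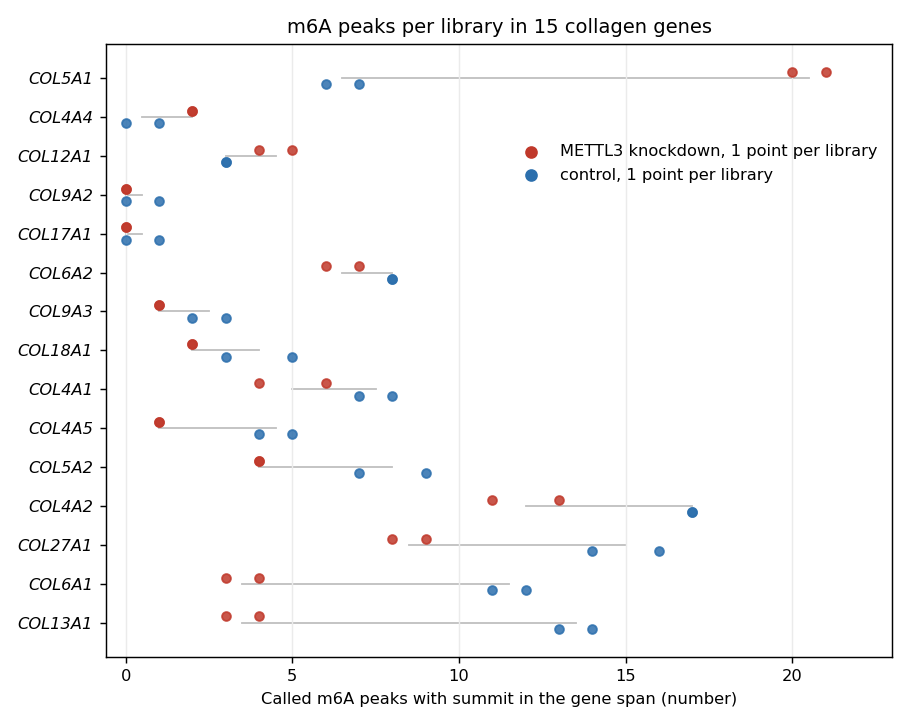
Number of called peaks with a summit in the gene span (x axis) for the 15 collagen genes with a peak, 1 point per library, METTL3 knockdown in red above control in blue, with a grey line joining the group means. COL5A1 is far to the right in knockdown (21 and 20 peaks, against 6 and 7 in control), and COL13A1 and COL6A1 lie farthest below control.

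Peaks of the 4 lists that overlapped by 1 bp or more, strand by strand, were merged to loci, which gave 155 collagen loci. Knockdown-only loci are those that both knockdown lists hold and neither control list does, and control-only loci are the reverse. Of the 57 collagen loci in both knockdown lists, 17 were knockdown-only (29.8%, 95% Wilson interval 19.5% to 42.7%), against 18.9% of all loci and 18.6% of loci in protein-coding genes. Of the 77 collagen loci in both control lists, 36 were control-only (46.8%, 36.0% to 57.8%), against 22.6% of all loci and 21.9% of loci in protein-coding genes. A further 31 loci were in all 4 lists. The intervals cover counting error only, and loci of 1 gene share its RNA and are not independent.

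COL5A1 alone held 9 of the 17 knockdown-only loci. Without this gene, 8 of 40 loci (20%) were knockdown-only, near the share of all loci, and 36 of 74 (48.6%) control-only. With all genes and 1 library left out, knockdown-only loci ranged from 19 to 27 and control-only loci from 40 to 53. Leaving out any library widens both kinds by construction. Peaks with a fold of at least 4 were also merged anew, so weaker peaks no longer counted as present. By this count 13 of 26 collagen loci were knockdown-only, against 27.6% of all loci and 27.3% of loci in protein-coding genes. Some of them had weaker control peaks. In COL12A1, 75183119 to 75183640 had folds of 5.65 and 6.59 in knockdown and 3.51 and 3.48 in control. Several of the 13 lay in COL5A1, and no share without this gene was computed at that fold. Control-only loci were 17 of 28 (60.7%), against 25% of all loci and 24.6% of loci in protein-coding genes.

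**Figure D2:**
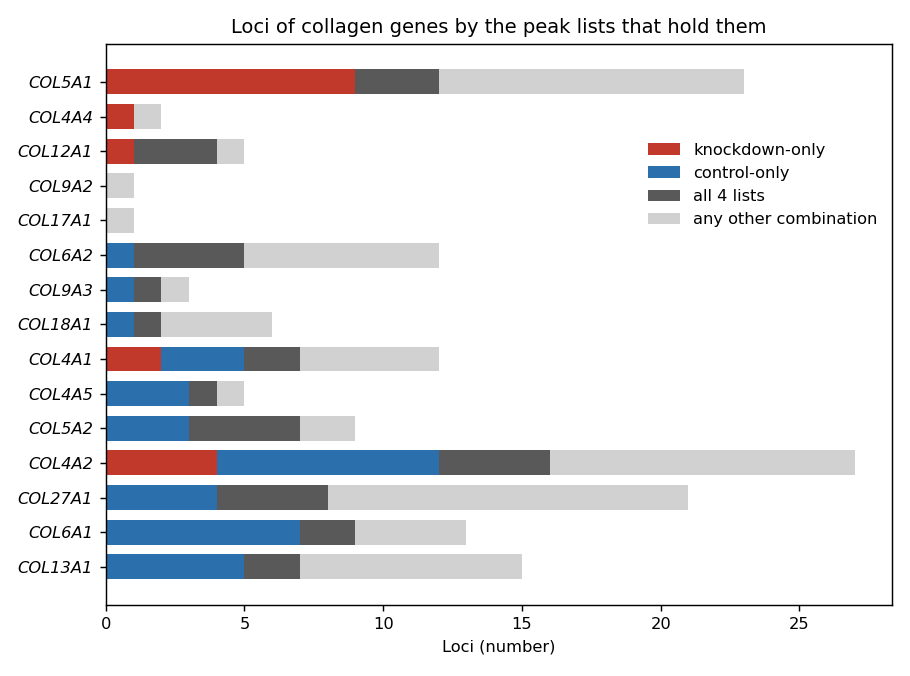
Number of merged loci (x axis) for each of the 15 collagen genes, split into loci found in the knockdown lists only, in the control lists only, in all 4 lists, and in any other combination. Knockdown-only loci are mostly those of COL5A1 (9) and COL4A2 (4), while 10 genes hold the 36 control-only loci.

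The fibril-forming group had peaks in 3 of its 11 genes, and 2 chains of the same collagen differed from control in opposite directions. Type V collagen combines COL5A1 and COL5A2 chains and regulates the diameter of type I fibrils. COL5A1 had 21 and 20 peaks in the knockdown lists and 6 and 7 in the control lists. Only 15 other protein-coding genes had as large a difference in mean peak number (14.0) or a larger one. This difference counts peaks of both strands. On the gene's own strand it was 6.5, for which no rank was computed. COL5A2 had 4 and 4 peaks in knockdown and 7 and 9 in control, so both groups were separated in each gene, but with the knockdown lists on opposite sides. The difference between the genes was not tested.

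Much of the difference in COL5A1 lay on the strand opposite to the gene. On the gene's own strand there were 13 and 12 peaks in knockdown and 6 and 6 in control. On the opposite strand there were 8 and 8 in knockdown and 0 and 1 in control. These opposite-strand peaks lay in the last part of the gene, within the span of LOC101448202, a long noncoding RNA gene annotated on chromosome 9 at 134819415 to 134872618, whose strand the gene table does not state. The opposite-strand peaks thus cannot be assigned to COL5A1. Of the 9 knockdown-only loci of COL5A1, 6 were on the opposite strand. The strongest, at 134824995 to 134825652, had folds of 7.08 and 6.64 in knockdown replicates 1 and 2. Another at 134819873 to 134820525 had folds of 5.23 and 5.47, and one 401 bp from the gene end, at 134844096 to 134844588, had 4.81 and 5.26. None of the COL5A1 loci was control-only. Its strongest locus in all 4 lists, at 134842032 to 134842800 and 2422 bp before the gene end, had folds of 7.94 and 7.41 in knockdown and 4.92 and 3.87 in control. That locus, and the gene's other own-strand loci near its end, also lay within the span of LOC101448202.

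**Figure D3:**
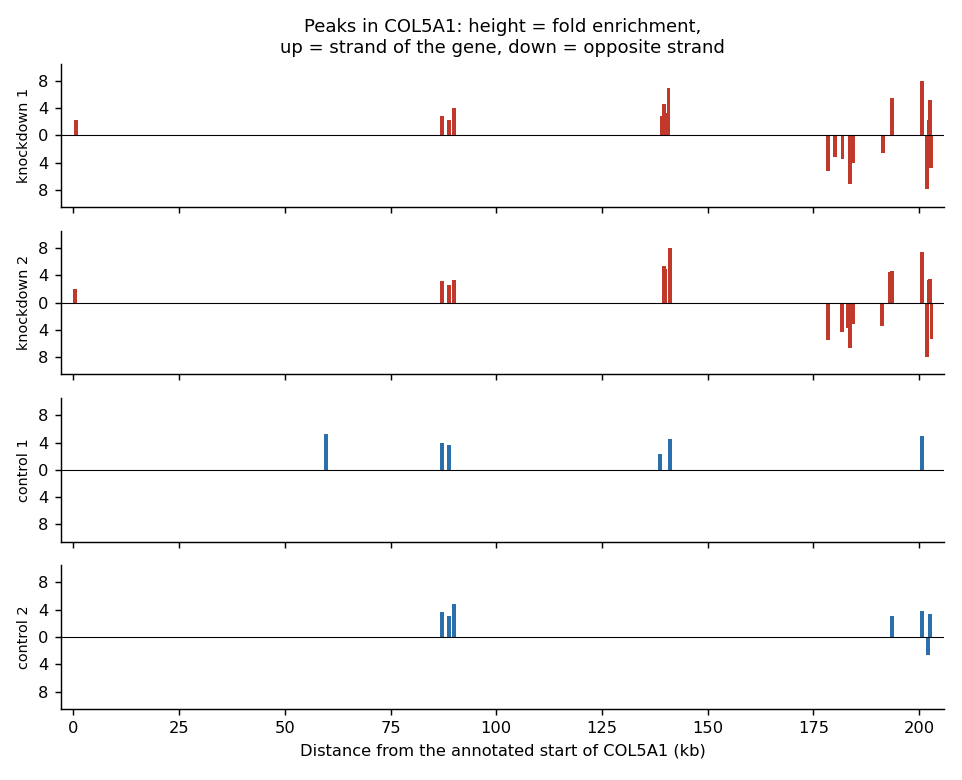
Called peaks of COL5A1 in each library (knockdown 1 and 2 in red, control 1 and 2 in blue) by distance from the annotated gene start (kb), with bar height giving the fold enrichment. Peaks on the gene's strand point up and those on the opposite strand down, and narrow peaks are widened so that they can be seen. The downward peaks near the gene end number 8 and 8 in knockdown, against 0 and 1 in control.

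COL5A2 lies on chromosome 2, and all its peaks were on the minus strand. Its 3 control-only loci were at 189056986 to 189057165, where control replicates 1 and 2 had folds of 5.61 and 6.01, at 189036729 to 189036880 (3.61 and 3.31) and at 189039322 to 189039581 (4.76 and 2.72). It kept 4 loci in all 4 lists, the strongest 2233 bp before the gene end at 189033703 to 189034318, with folds of 4.99 and 5.19 in knockdown and 5.67 and 6.44 in control. COL27A1, a later-described fibril-forming chain made in cartilage and other tissues, had 8 and 9 peaks in knockdown and 14 and 16 in control. Its 4 control-only loci included 114269729 to 114270390 on chromosome 9 (folds 5.02 and 4.08 in control) and 114167626 to 114167914 (3.14 and 3.79). Another, at 114168895 to 114169131, lay on the opposite strand (4.10 and 3.44). None was knockdown-only, and 4 loci were in all lists. One of these, at 114284927 to 114285293, ranked highest of the shared collagen loci, with folds of 7.47 and 7.15 in knockdown and 9.45 and 7.80 in control. Next came 114168021 to 114169302, with 8.76 and 7.81 in knockdown and 5.61 and 4.90 in control.

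The basement membrane network is built from type IV collagen, whose common form combines COL4A1 and COL4A2. These 2 genes lie back to back on chromosome 13 with 126 bp between their annotated spans, and both had fewer peaks in knockdown. COL4A1 had 4 and 6 peaks in knockdown and 8 and 7 in control. COL4A2 had 13 and 11 in knockdown and 17 and 17 in control. Counted on the gene's own strand alone, COL4A2 had 10 and 9 in knockdown and 17 and 17 in control. The groups were separated in each of these counts.

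Loci of both kinds stood side by side in the pair. COL4A2 had 4 loci that were knockdown-only and 8 that were control-only, and COL4A1 had 2 and 3 of these kinds. The strongest control-only locus of COL4A2, at 110424640 to 110424818, had folds of 7.66 in control replicate 1 and 6.82 in replicate 2. The locus at the start, whose sequence is printed above, had folds of 4.40 and 4.36. Others were at 110507849 to 110508076 (5.28 and 6.82) and at 110480162 to 110480322 (6.35 and 4.97). Downstream of the last of these, on the opposite strand, were the strongest knockdown-only loci of the gene. They were at 110481921 to 110482447, with folds of 9.72 and 7.76 in knockdown, and at 110480810 to 110481703, with 7.19 and 9.08. No other annotated gene covers them. On the gene's strand, the knockdown-only locus with the highest rank was 110434826 to 110435671 (3.0 and 4.14). In COL4A1 a control-only locus at 110207428 to 110207592 had folds of 7.27 and 5.79 in control, and a knockdown-only locus at 110197276 to 110197746 had 5.81 and 4.94 in knockdown. The remaining control-only and knockdown-only loci of the gene were weaker, with control folds of 3.11 and 3.35 at 110213794 to 110214097 and of 2.83 and 3.48 at 110210161 to 110210317, and knockdown folds of 2.48 and 3.29 at 110278760 to 110279094.

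COL4A5, on the X chromosome, encodes a chain of the kidney glomerular basement membrane. It had 1 and 1 peaks in knockdown and 4 and 5 in control. Its 3 control-only loci were weak, with folds from 3.11 to 3.96 in control, at 108503895 to 108504457, 108508955 to 108509144 and 108631774 to 108632095. The locus in all 4 lists lay 895 bp before the gene end, with folds of 5.01 and 5.47 in knockdown and 2.89 and 2.64 in control. When peaks below a fold of 4 were left out, COL4A5 had more peaks in knockdown (a difference of 1.0), so its direction depends on the weak peaks. COL4A4, another chain of the glomerular basement membrane, had 2 and 2 peaks in knockdown and 0 and 1 in control. All of these were on the opposite strand, within the overlapping protein-coding gene RHBDD1 that runs along it, so they cannot be assigned to COL4A4. The knockdown-only locus among them, at 226995330 to 226995547 on chromosome 2, had folds of 4.32 and 3.37.

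Type VI collagen forms beaded filaments around cells from COL6A1, COL6A2 and COL6A3 chains. COL6A1 had 4 and 3 peaks in knockdown and 12 and 11 in control, covering 878 and 870 bp in knockdown and 4201 and 4036 bp in control. Of its 11 loci in both control lists, 7 were control-only. The strongest were 45986837 to 45987162 on chromosome 21 (folds 7.02 and 6.82 in control), 45982517 to 45982741 (5.51 and 5.35) and 45984177 to 45984418 (5.44 and 7.79). The loci kept in all lists were the last 2 of the gene, 1033 and 262 bp before its end. COL6A2 follows COL6A1 on the same chromosome, and had 6 and 7 peaks in knockdown and 8 and 8 in control. It had 1 control-only locus, at 46111416 to 46111572 (4.52 and 5.47 in control), and 4 loci in all lists. The groups were separated in both genes, with knockdown lower by 8.0 peaks on average in COL6A1 and by 1.5 in COL6A2. COL6A3 had no peak in any list.

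**Figure D4:**
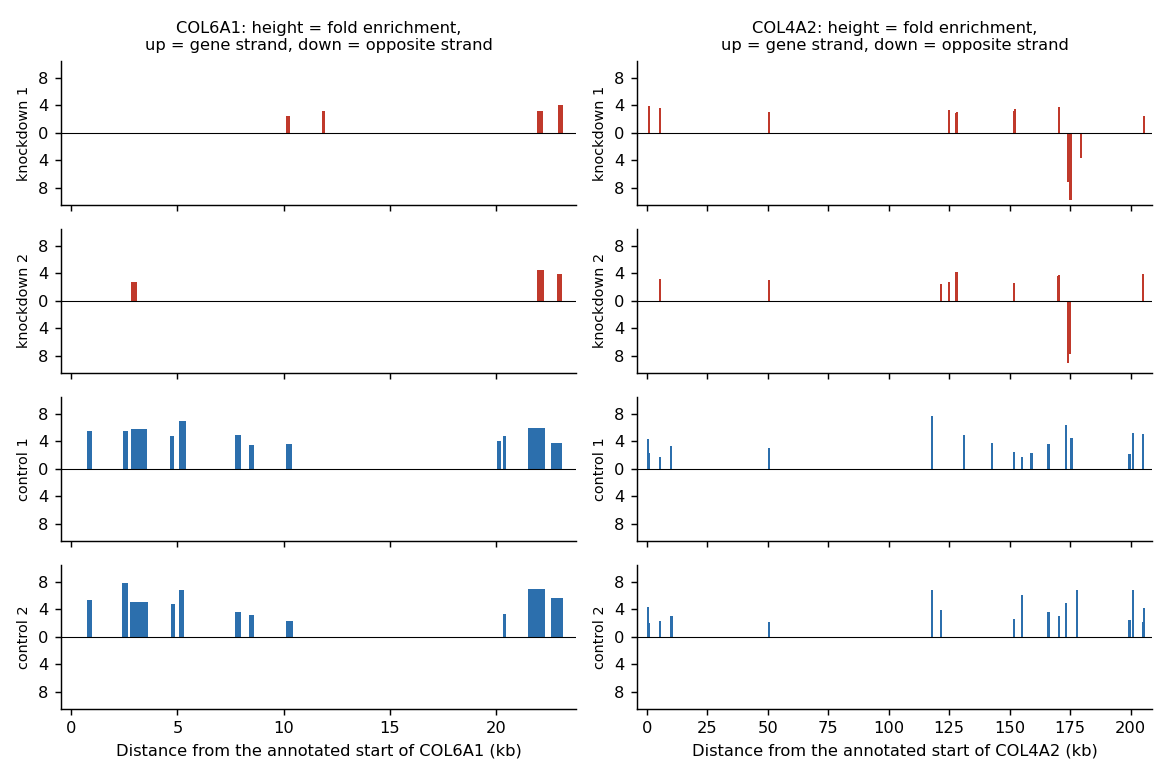
Called peaks of COL6A1 (left) and COL4A2 (right) in each library, knockdown 1 and 2 in red above control 1 and 2 in blue, by distance from the annotated gene start (kb), with bar height giving the fold enrichment. Peaks on the gene's strand point up and those on the opposite strand down, and narrow peaks are widened so that they can be seen. In COL6A1, 7 loci before the gene end have bars in both control tracks and in neither knockdown track, and in COL4A2 downward bars appear in the knockdown tracks.

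Among the transmembrane collagens, COL13A1, a protein of cell adhesion sites and the neuromuscular junction, had 3 and 4 peaks in knockdown and 14 and 13 in control. Of the 15 genes it lay farthest below control, by 10 peaks on average, and only 59 other protein-coding genes had a difference as low or lower. A locus at its start was in all 4 lists (chromosome 10, 69801904 to 69803028), where folds were 7.84 and 7.37 in knockdown and 3.92 and 4.94 in control. Its 5 control-only loci lay far downstream. The strongest were 69937503 to 69937654 (folds 5.91 and 3.55 in control), 69907524 to 69907823 (4.13 and 3.49) and 69947254 to 69947914 (3.10 and 4.46). COL17A1, a hemidesmosome protein of keratinocytes, had a single peak, in control replicate 1 and on the opposite strand.

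Fibril-associated collagens bind to the surface of fibrils, and 3 of the 10 such genes had peaks. COL12A1 had 5 and 4 peaks in knockdown and 3 and 3 in control. It was the only collagen gene besides COL5A1 that was higher on its own strand in knockdown. Its knockdown-only locus was at 75180957 to 75181200 on chromosome 6 (folds 4.60 and 3.03), and its strongest shared locus, 75177676 to 75177980, had folds of 7.71 and 7.28 in knockdown and 4.41 and 4.03 in control. COL9A3, a cartilage collagen chain, had 1 and 1 peaks in knockdown and 2 and 3 in control, with 1 weak control-only locus at 62836169 to 62836511 on chromosome 20 (2.87 and 2.04). Its difference was 0 among peaks with a fold of 4 or more. COL9A2, its partner chain, had 1 peak, in control replicate 2. COL18A1 of the multiplexins, the source of the fragment endostatin, had 2 and 2 peaks in knockdown and 3 and 5 in control. This difference was 0 among peaks with a fold of 4 or more and also among those with a −log10 q of 20 or more. Its control-only locus was at 45468244 to 45468645 on chromosome 21 (2.71 and 3.16), and its locus in all lists, at 45474650 to 45474896, had folds of 5.6 and 4.50 in knockdown and 4.92 and 4.38 in control. No gene of the short-chain collagens (3) or of the anchoring fibril and remaining collagens (3) had a peak.

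Loci were then divided by their position in the gene. On the gene's strand and within the last 2000 bp of the span, 1 of the 11 collagen loci in both knockdown lists was knockdown-only, against 17.1% of such loci over protein-coding genes with a known strand. Of the 9 in both control lists 0 were control-only (Wilson interval up to 29.9%), against 16.1%. All 9 were in all 4 lists, and they lay in COL4A1, COL4A2, COL4A5, COL6A1, COL6A2, COL9A3 and COL27A1. In the interior of the genes, 6 of 33 loci in both knockdown lists were knockdown-only (18.2%), against 17.7% of interior loci over all such genes. Of the 64 interior loci in both control lists, 34 were control-only (53.1%, Wilson interval 41.1% to 64.8%), against 22.6%. The 3 loci at gene starts are those printed above, beside 17% knockdown-only and 14.8% control-only among start loci of all such genes. The nearest kept loci outside the window were those of COL5A2 and COL5A1 described above, at 2233 and 2422 bp from the end. Without exons in the gene table, gene ends could not be split into coding sequence and untranslated region.

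**Figure D5:**
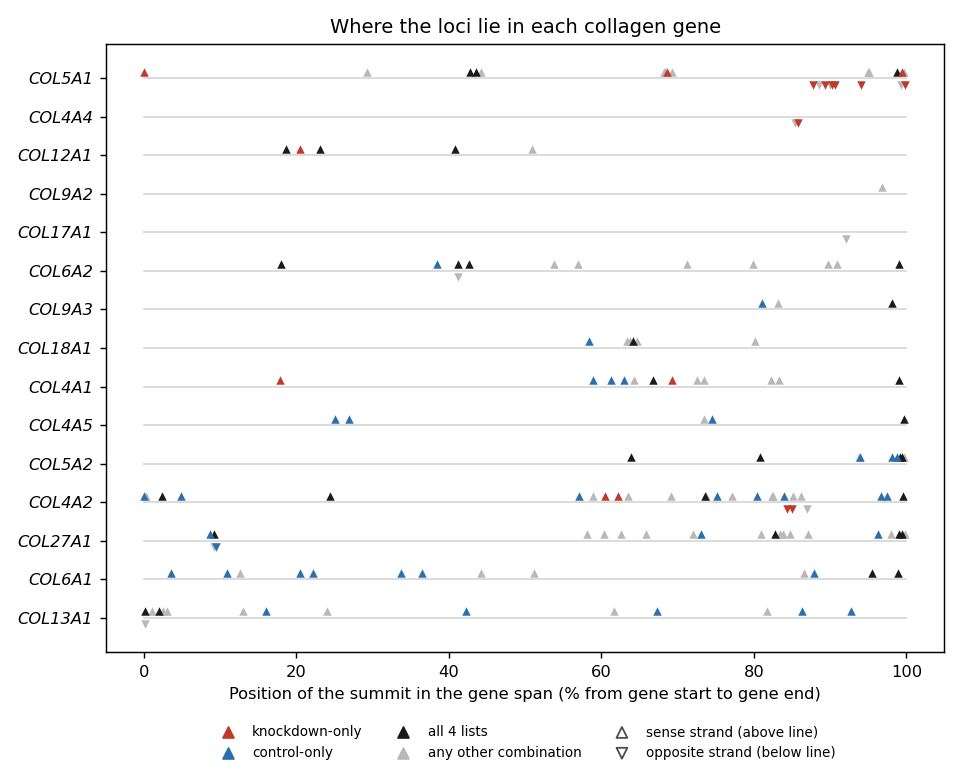
Position of each collagen locus as the percentage of the span from gene start to gene end (x axis), with loci on the gene's strand above the line and those on the opposite strand below it, coloured by the lists that hold them. Within the last 2000 bp and on the gene's strand, 9 of 14 loci are in all 4 lists (black), and the red opposite-strand loci lie in COL5A1, COL4A2 and COL4A4.

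The strand was in the RefSeq table for 12 of the 15 genes. For COL5A2, COL6A1 and COL9A3 it was read from their peaks, so these 3 cannot hold an opposite-strand locus and all their loci count as sense. In the 12 genes, 19 of 130 loci lay on the strand opposite to the gene (14.6%), against 5.72% of loci in all protein-coding genes with a strand in the table. The 19 lay in 7 genes and were uneven. COL5A1 had 16 opposite-strand peaks over the 2 knockdown lists and 1 over the control lists. Both loci of COL4A4 are among the 19 and lay within RHBDD1. More of the 19 lay in COL5A1 than in any other gene. No share without COL5A1 and COL4A4 was computed, so the 14.6% is not shown to hold for collagen genes in general. Opposite-strand peaks numbered 13 and 14 in knockdown and 3 and 6 in control, while sense peaks numbered 61 and 60 in knockdown and 96 and 100 in control (exact permutation p = 0.33 for each). Of the 11 opposite-strand loci in both knockdown lists, 9 were knockdown-only (81.8%, Wilson interval 52.3% to 94.9%), against 26.7% of opposite-strand loci over protein-coding genes. Of the 2 in both control lists, 1 was control-only, against 29.7%. These 9 lay in only 3 genes, with 6 in COL5A1, 2 in COL4A2 and 1 in COL4A4. On the genes' own strands, 8 of 46 loci were knockdown-only (17.4%) and 35 of 75 control-only (46.7%). By position on that strand, the shares over protein-coding genes ranged from 17% to 17.7% knockdown-only and from 14.8% to 22.6% control-only. The knockdown-only share of collagen genes on their own strand was thus near that of other genes.

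Genes that make, trim, bind and degrade collagen were counted in 4 lists of 60 genes, of which 44 had a peak. Of these 44, 21 had fewer peaks in both knockdown lists and 5 had more, beside the 24.4% and 19.4% of all genes with a peak. In the biosynthesis list 8 of 22 genes with a peak were lower and 2 higher, and in the processing and crosslinking list 5 of 6 were lower and 0 higher. For receptors the numbers were 5 and 1 of 9, and for degradation 3 and 2 of 7. LOXL2, a lysyl oxidase that crosslinks collagen, had 7 and 9 peaks in knockdown and 15 and 15 in control, and 8 of its loci were control-only. PLOD1, a lysyl hydroxylase, had 2 and 1 in knockdown and 7 and 7 in control. SPARC, a collagen-binding matrix protein, had 8 and 7 in knockdown and 14 and 11 in control.

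Lower counts were also found for MRC2, an endocytic collagen receptor, with 3 and 1 peaks in knockdown and 8 and 6 in control, and MMP2, a gelatinase, with 6 and 5 in knockdown and 9 and 11 in control. LOXL3, another lysyl oxidase, had 3 and 3 in knockdown and 8 and 8 in control, but 12 of its 22 peaks also lay in another protein-coding gene. Of the genes that were higher, TIMP2, an inhibitor of matrix metalloproteinases, had 10 and 9 peaks in knockdown and 4 and 6 in control, 8 of these 29 inside another protein-coding gene as well. P3H2, a collagen prolyl hydroxylase, had 1 and 1 in knockdown and 0 and 0 in control, but these peaks formed no knockdown-only locus. FKBP14, a prolyl isomerase of the endoplasmic reticulum, had 2 and 2 in knockdown and 1 and 1 in control. GP6, the platelet collagen receptor, had 8 and 7 in knockdown and 0 and 2 in control, but 14 of its 15 knockdown peaks were on the opposite strand. All 4 peaks of TIMP3, a further metalloproteinase inhibitor, 2 and 2 in knockdown and 0 and 0 in control, lay in the span of another protein-coding gene. The higher count of GP6 thus cannot be assigned to that gene. The TIMP3 peaks were all on its own strand, and the strand of the other gene was not compared.

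Markers of cell identity were also read from the lists. A peak was present in 5 of 5 genes of the dedifferentiated melanoma state, with 34 and 31 peaks in knockdown and 37 and 40 in control. The sum joins genes that differed in opposite directions. EGFR had 22 and 21 peaks in knockdown and 19 and 18 in control, while NT5E had 3 and 3 in knockdown and 9 and 11 in control, with 6 control-only loci. A peak was also present in 1 of 7 melanocyte lineage genes (MITF, with 7 and 9 in knockdown and 5 and 8 in control). Of the melanocyte genes, SOX10, PMEL, TYR, MLANA, DCT and TYRP1 had no peak. Fibroblast markers had a peak in 3 of 6 genes, with 4 and 7 peaks in knockdown and 6 and 6 in control. Endothelial markers had one in 1 of 5, PECAM1, with 0 and 0 in knockdown and 3 and 4 in control. Peak lists do not give RNA amounts, and the part of cell state in the collagen peaks was not tested.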

How the data were processed

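Peaks of 4 m6A-enriched libraries were analysed. Per the submitters' processing notes, the build was hg38 and the tools were MACS2 2.2.7.1, HISAT2 2.1.0, Bowtie2 2.4.2, SAMtools and Trim Galore 0.6.6, with no roles stated. The deposited peak names show 1 call per library and strand. Whether input or spike-in entered it is not stated in the sources. The deposited fold enrichment (a ratio), the −log10 of the p-value and the −log10 of the q-value are the authors' values; the deposited score and summit offset come from the same caller, and only the offset was used, to place summits. The smallest −log10 q was 2.00 in each list.

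Spans came from RefSeq (GRCh38.p14) and strands from its table of start windows (15842 of 20056 genes); COL5A2, COL6A1 and COL9A3 took the strand of all their peaks. A locus was placed by its peak with the highest −log10 q; gene starts are the first 500 bp. Merging was tested on simulated data. Library values were compared by exact permutation (scipy 1.17.1). The planned named genes were every member with a peak, up to 3 moved loci of each kind per gene, 6 shared loci and up to 6 pathway genes per direction. Members and lists were chosen with earlier results of these data known. Alternatives covered thresholds, list length, overlap, strand, spans and replicates; leaving out COL5A1 and the minimum of 8 peaks were chosen after seeing the data.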

Additional observations from a re-analysis of the deposited data

How the results depend on the processing

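With knockdown minus control as the difference, the mean number of collagen peaks fell by 28.5 and stayed below 0 in each alternative run. It was -8.0 with a fold of at least 4 and -18.5 with a −log10 q of at least 20, and between -32.0 and -25.0 with 1 library left out. The replicate block, which pairs libraries of the same number, gave the same difference with an exact permutation p of 0.5, the smallest that 2 pairs allow; deviations of same-numbered libraries correlated at 0.0322 over 10735 genes, and no label pairs them. Knockdown-only loci fell to 8 on the strand of the gene only and to 8 without COL5A1, and ranged from 19 to 27 with a library left out. Control-only loci fell to 17 with a fold of at least 4 and to 20 with a −log10 q of at least 20, and ranged from 40 to 53 with a library left out. Leaving out a library widens both kinds of locus by construction, and it also makes the groups of a gene easier to separate. No shares over all loci or genes were computed for these runs or for a −log10 q of at least 20. Lower genes numbered 5 and higher genes 4 with a fold of at least 4. With a library left out, lower genes numbered 10 to 11 and higher genes 3. COL4A5 turned to a difference of 1.0 with a fold of at least 4; the cause was not tested. Of 165 values of single genes under the alternatives, 140 stayed within the spread of replicates, 24 moved and 1 reversed. These include the run without COL5A1, in which COL5A1 had to move and no other gene could change. Read depth is unknown, so peaks near the calling threshold limit every count.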
